A study of Mus musculus with 8 samples.

Results

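The genes described here are 32 members of the hypoxia response that do not belong to glycolysis, taken by gene symbol from a table of 22518 genes measured in whole mouse heart. All 32 symbols were found, each in 1 row. Heart RNA came from C57BL/6 mice at postnatal day 12. Littermate wild type mice gave 4 libraries, and mice labelled as PHD2/3 endothelial knockout gave the other 4. The sources used here do not name the Cre driver or the floxed alleles, or say that each library is a separate mouse, and p-values therefore reflect only how these libraries vary. The values are FPKM (fragments per kilobase of transcript, scaled to the fragments mapped, so that genes can be compared by level), quantile normalised by the authors, and their sequencing depth is unknown.

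PHD2 and PHD3 are oxygen-dependent prolyl hydroxylases, and the hydroxyl groups they add mark the alpha subunits of hypoxia-inducible factor (HIF) for degradation. When the enzymes are inactive, HIF binds a short DNA element whose core is ACGTG or GCGTG and raises genes that adapt a cell to low oxygen. Outside glycolysis these genes remove or restrain mitochondria, store lipid, fold secreted proteins, slow growth and feed back on transcription. In the heart, endothelial cells, cardiomyocytes and fibroblasts all use this response, so a value from whole tissue mixes cells in which the enzymes were deleted with cells in which they were not.

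Upstream sequences of 5 members are shown because all of them hold the HIF core while their values differed in how they compared between the groups: Bnip3, Ero1l and Pdk1 rose, Ankrd37 lay just outside the threshold, and Wsb1 had overlapping groups. Each run is printed 5′ to 3′ on the strand of the gene, from the 250 bases upstream of a RefSeq start on GRCm38.p6 (the assembly of mm10) and without bases that GENCODE M21 places in an exon. Capitals mark ACGTG or GCGTG on either strand. The Bnip3 run is chr7:138909520-138909756, minus strand. The Ero1l run, listed in RefSeq as Ero1a, is chr14:45318573-45318702, minus strand. The Pdk1 run is chr2:71872974-71873223, plus strand. The Ankrd37 run, which holds 3 of the 4 matches of its window, is chr8:45999868-46000100, minus strand. The Wsb1 run is chr11:79254696-79254945, minus strand.
Bnip3: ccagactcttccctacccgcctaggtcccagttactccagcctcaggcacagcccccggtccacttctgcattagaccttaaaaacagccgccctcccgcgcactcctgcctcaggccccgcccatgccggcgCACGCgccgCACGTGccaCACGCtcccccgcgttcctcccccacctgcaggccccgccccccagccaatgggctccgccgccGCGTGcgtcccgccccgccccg
Ero1l: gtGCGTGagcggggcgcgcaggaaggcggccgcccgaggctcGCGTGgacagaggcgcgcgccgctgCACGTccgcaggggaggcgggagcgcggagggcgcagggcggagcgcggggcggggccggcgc
Pdk1: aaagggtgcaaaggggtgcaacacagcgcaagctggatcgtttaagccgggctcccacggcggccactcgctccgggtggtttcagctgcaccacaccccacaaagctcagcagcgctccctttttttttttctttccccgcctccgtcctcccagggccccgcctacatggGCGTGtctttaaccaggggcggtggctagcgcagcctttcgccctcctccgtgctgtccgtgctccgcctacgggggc
Ankrd37: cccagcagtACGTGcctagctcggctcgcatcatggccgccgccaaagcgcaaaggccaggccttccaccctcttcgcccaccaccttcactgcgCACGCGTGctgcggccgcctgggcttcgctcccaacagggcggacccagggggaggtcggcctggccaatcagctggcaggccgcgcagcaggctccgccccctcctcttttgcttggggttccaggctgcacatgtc
Wsb1: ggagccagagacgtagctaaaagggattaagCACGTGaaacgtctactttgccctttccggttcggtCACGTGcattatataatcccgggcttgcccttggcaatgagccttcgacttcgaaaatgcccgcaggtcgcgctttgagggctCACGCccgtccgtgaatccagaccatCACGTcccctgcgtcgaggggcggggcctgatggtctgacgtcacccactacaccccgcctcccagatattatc

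The core was searched as ACGTG and GCGTG on both strands of the 250 upstream bases, and the palindrome CACGTG counts as 2 overlapping matches. Wsb1 had 6 matches, Bnip3 5, Ankrd37 4, Ero1l 3 and Pdk1 1. Among 25 members with a RefSeq upstream window, 23 held at least 1 match in a window, against 62.4% of 8354 tested genes with such a window. Counted by window, 28 of the 38 windows of members held a match (73.7%), against 38.6% of all 32851 windows. A match was present in 7 of 8 matched members that rose and in 15 of 16 that did not pass the test. Vldlr, which rose, and Mif, which did not pass the test, were the members without a match.

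Members were compared between the groups with limma on log2(FPKM + 1), with Benjamini-Hochberg adjustment over the 11390 genes whose mean reached 1 FPKM. Of the 32 members, 31 passed this filter and Epo did not. At adjusted p under 0.05, 12 of the 31 rose and 0 fell, a share raised of 38.7% against 6.15% of all tested genes raised and 6.01% lowered. In 15 members every knockout library lay above every wild type library, while 10.3% of all tested genes did so. Siah2 was the only member, among the 31, with every knockout library below every wild type library, against 10.4% of all tested genes. The median log2 change was 0.40 over the 31 members and -0.01 over all tested genes. Counts by role and by marker list below stand beside the same 6.15% raised and 6.01% lowered of all tested genes. Folds below are ratios of mean FPKM, log2 changes (± SE) are knockout minus wild type on log2(FPKM + 1), a scale that understates low genes, and means are ± SD with n = 4.

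**Figure D1:**
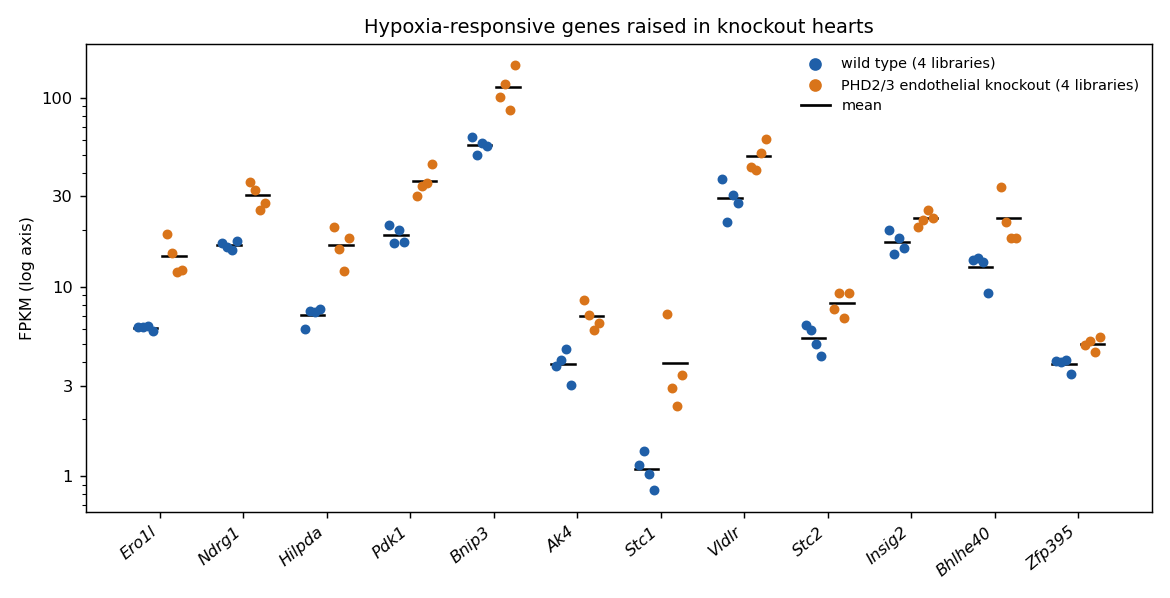
FPKM on a log axis of the 12 members raised in the knockout hearts, ordered by adjusted p; each point is 1 library (blue wild type, orange knockout, replicates 1 to 4 from left to right within each group) and the black line is the group mean. In every one of these genes the 4 knockout points lie above the 4 wild type points, with the lowest knockout value 1.91 times the highest wild type value for Ero1l and 1.04 times for Insig2.

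Some libraries stood apart in ways that touch these genes. Lung epithelial markers summed to 1241 FPKM in wild type replicate 4 and to at most 0.481 FPKM in any other library. In that replicate Scgb1a1 held 1030 FPKM and Scgb3a2 206 FPKM, while Sftpa1, Sftpb and Sftpc were at 3.83, 0.454 and 0 FPKM. Fibroblast markers summed to 833 to 938 FPKM in the wild type and 466 to 668 FPKM in knockout libraries, with 3 of 7 tested lowered. Macrophage and leukocyte markers summed to 77.4 to 90.4 FPKM in the wild type and 103 to 119.8 FPKM in knockout libraries. Among 5 tested, only Lyz2 was raised, with means of 41.2 FPKM in the wild type and 65.9 FPKM in knockout hearts. Csf1r, Cd68, C1qa, Cd14 and Ptprc overlapped between the groups. Endothelial markers overlapped in their sums, at 636 to 722 FPKM in the wild type and 629 to 659.8 FPKM in knockout libraries. Of 10 tested, 1 was raised (Eng) and 2 were lowered (Tie1 and Tek). Their median log2 change was -0.21, and only 2 of the 10, Pecam1 and Eng, had a change above 0. Cardiomyocyte markers summed to 24450.4 to 25254 FPKM in the wild type and 21245 to 24490.2 FPKM in knockout libraries, with Mybpc3 raised and Tnni3 lowered among 8 tested. Their median log2 change was 0.05, and 5 of the 8 had a change above 0. At such levels quantile normalisation gives libraries shared values. Actc1 was thus at 9635 FPKM in wild type replicates 1 and 3 and in knockout replicates 1 to 3. Erythroid markers summed to 1209 to 6169 FPKM in the wild type and 192 to 1568 FPKM in knockout libraries. Hba-a1, Hba-a2 and Alas2 had log2 changes of -1.91, -1.81 and -1.65, with 0 of 3 called (limma adjusted p = 0.122, 0.159 and 0.0759). Adipocyte markers ranged from 1233 to 1848 FPKM over the 8 libraries, with 0 of 4 tested called, and Fabp4 alone held 1233 to 1832 FPKM. Adipoq ran from 0 to 7.78 FPKM and Ucp1 from 0 to 15.4 FPKM, both highest in knockout replicate 2. Mural markers (684 to 1138 against 667 to 959 FPKM), with 1 of 7 raised, and thymus markers (1.08 to 1.54 against 0.158 to 1.26 FPKM) overlapped. The sum of atrial markers was highest in knockout replicate 2 (11820.2 against at most 6439 FPKM elsewhere), where Nppa alone held 8759 FPKM. Nppa ran from 1246 to 1786 FPKM in the wild type and from 2195 to 8759 FPKM in knockout libraries (limma adjusted p = 0.0580). Myl7 and Myl4 were also highest in knockout replicate 2, but Bmp10 was highest in knockout replicate 3 and Sln in wild type replicate 4. No listed marker found in the table was at 0 in all libraries. In whole tissue, fewer cells of a type and less RNA per cell cannot be told apart, and the part of these markers in the results below was not tested.

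Mitochondrial members split into 3 of 6 that rose and 3 that did not pass the test. Bnip3, a receptor on the outer mitochondrial membrane that marks mitochondria for autophagy (chromosome 7, 138890836 to 138909519; mm10), measured 62.2, 49.8, 57.7 and 55.6 FPKM in replicates 1 to 4 of the wild type. It was at 101, 118, 85.7 and 148 FPKM in knockout replicates 1 to 4, so the lowest knockout library exceeded the highest wild type library. The fold was 2.01 (log2 change 0.97 ± 0.15, limma adjusted p = 0.00510). Its exons share 22.3% of their bases with the antisense gene Gm45507, and the strand of the reads is not given.

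Pdk1, the kinase that shuts off pyruvate dehydrogenase (chromosome 2, 71873224 to 71903858), measured 21.2, 17.02, 20.04 and 17.3 FPKM in the wild type and 30.3, 34.2, 35.3 and 44.6 FPKM in knockout libraries. Both genes were highest in knockout replicate 4. The fold of Pdk1 was 1.91 (log2 change 0.89 ± 0.12, limma adjusted p = 0.00273). Ak4, a mitochondrial matrix adenylate kinase (chromosome 4, 101419277 to 101466995), rose 1.79-fold from a mean of 3.91 ± 0.697 FPKM (log2 change 0.71 ± 0.13, limma adjusted p = 0.00984). Its wild type libraries reached 4.71 FPKM and its knockout libraries started at 5.94 FPKM.

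The other mitochondrial members were abundant and did not pass the test. Bnip3l, the close relative of Bnip3 that also clears mitochondria, measured 72.5, 52.8, 70.3 and 65.4 FPKM in the wild type against 82.8, 80.6, 80.8 and 78.8 FPKM in knockout libraries. The groups did not overlap, but the 1.24-fold difference missed the threshold (log2 change 0.31 ± 0.10, limma adjusted p = 0.0682). Fam162a, a mitochondrial protein linked to cell death, measured 145 ± 7.75 FPKM in the wild type and 169 ± 16.2 FPKM in knockout hearts (limma adjusted p = 0.117), and 19.8% of its exonic bases overlap Wdr5b on the opposite strand. Higd1a, which stabilises the respiratory chain, measured 77.4 ± 5.92 and 81.8 ± 7.54 FPKM. Its 95% interval on the log2 scale ran from -0.12 to 0.28, and the change of Bnip3 lies outside it. Higd1a shares 22.5% of its exonic bases with Gm47112 on the opposite strand.

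Lipid-handling members contained 3 of 5 that rose. Hilpda, a lipid droplet protein that blocks the lipase ATGL (chromosome 6, 29272488 to 29275446), measured 5.95, 7.49, 7.35 and 7.64 FPKM in the wild type and 20.8, 15.8, 12.2 and 18.02 FPKM in knockout libraries. The lowest knockout value was 1.59 times the highest wild type value. The fold was 2.35 (log2 change 1.11 ± 0.15, limma adjusted p = 0.00233). Vldlr, the receptor that takes up triglyceride-rich lipoproteins (chromosome 19, 27216484 to 27254231), measured 37.1, 21.9, 30.4 and 27.8 FPKM in the wild type and 42.9, 41.5, 50.8 and 60.3 FPKM in knockout libraries. The groups were apart by a small margin, with a 1.67-fold difference of means (log2 change 0.73 ± 0.16, limma adjusted p = 0.0218). The call of Vldlr was lost when wild type replicate 2 (0.0584) or 4 (0.0608) or knockout replicate 3 (0.0572) was left out.

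Insig2, which holds the sterol sensor in the endoplasmic reticulum (chromosome 1, 121304353 to 121332589), rose 1.34-fold from 17.2 ± 2.25 to 22.96 ± 2.01 FPKM (limma adjusted p = 0.0365). Its highest wild type library reached 19.9 FPKM and its lowest knockout library 20.7 FPKM. The call was kept in 2 of the 8 omissions, those of wild type replicate 1 and of knockout replicate 1. Leaving out wild type replicates 2, 3 and 4 gave adjusted p of 0.108, 0.0643 and 0.0925, and leaving out knockout replicates 2, 3 and 4 gave 0.0786, 0.0909 and 0.0520. With the replicate number as a block it was 0.0844. Angptl4, a secreted inhibitor of lipoprotein lipase, measured 26.9, 16.9, 25.6 and 51.5 FPKM in the wild type and 40.97, 29.3, 30.7 and 33.1 FPKM in knockout libraries. Wild type replicate 4, the library with lung markers, was the highest of all 8, and the log2 change of 0.24 ± 0.28 became 0.53 without it (limma adjusted p = 0.594 with it and 0.105 without). Without wild type replicate 2, the lowest of the 8, it was 0.02. Plin2, a coat protein of lipid droplets, measured 35.6 ± 3.29 FPKM in the wild type and 38.9 ± 4.88 FPKM in knockout hearts (limma adjusted p = 0.470).

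Secreted members were led by both stanniocalcins. Stc1, a glycoprotein hormone that acts on calcium and on mitochondria (chromosome 14, 69029238 to 69041804), measured 1.15, 1.35, 1.03 and 0.838 FPKM in the wild type and 7.14, 2.91, 2.35 and 3.40 FPKM in knockout libraries. Knockout replicate 1 held more than any other library, and every knockout library exceeded all wild type libraries. The fold was 3.62 (log2 change 1.16 ± 0.24, limma adjusted p = 0.0160), the largest log2 change among the 31 members, and it was 0.89 without knockout replicate 1. Stc2, its relative (chromosome 11, 31357307 to 31370074), measured 6.32, 5.93, 4.96 and 4.33 FPKM in the wild type and 7.62, 9.23, 6.81 and 9.29 FPKM in knockout libraries. It rose 1.53-fold (log2 change 0.53 ± 0.13, limma adjusted p = 0.0283). This call was lost when wild type replicate 2 (0.0573), 3 (0.0708) or 4 (0.0709) or knockout replicate 2 (0.0786) or 4 (0.0501) was left out, and with the replicate block (0.0691).

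Mif, a cytokine that holds macrophages in place and one of the most abundant members, lay just outside the threshold. Its libraries held 102, 127, 107 and 119 FPKM in the wild type and 205, 193, 129 and 139.9 FPKM in knockout libraries. The groups did not overlap, and the 1.46-fold difference had a limma adjusted p = 0.0523. Mif was called in 2 of the 8 omissions (0.0324 without knockout replicate 3 and 0.0375 without knockout replicate 4), and its adjusted p reached 0.128 without knockout replicate 2. It was also called in 3 of the 9 other alternatives: the Ddx3y covariate, array weights and a mean of at least 5 FPKM. Mif has many processed copies in the mouse genome whose reads the quantification could have shared, so its level is uncertain. Epo, the erythropoietin gene, was listed at 0 FPKM in all 4 wild type libraries and at 0.0442, 0, 0.0452 and 0 FPKM in the knockout libraries. A two-sided exact permutation test gave p = 0.429.

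Members of the endoplasmic reticulum and cell surface held the smallest adjusted p of the set. Ero1l, the oxidase that lets proteins form disulfide bonds (chromosome 14, 45283087 to 45318771), measured 6.16, 6.14, 6.21 and 5.84 FPKM in the wild type and 18.9, 15.05, 11.9 and 12.3 FPKM in knockout libraries. The wild type libraries had an SD of 0.167 FPKM, and the lowest knockout value was 1.91 times the highest of them. The fold was 2.39 (log2 change 1.11 ± 0.13, limma adjusted p = 0.00148). Tmem45a, a membrane protein induced by hypoxia, measured 2.83 ± 0.674 FPKM in the wild type and 4.10 ± 0.648 FPKM in knockout hearts (limma adjusted p = 0.0857). It was called in 1 of the 8 omissions, that of knockout replicate 1 (0.0369), and the others gave up to 0.175. Nt5e, which encodes the ecto-nucleotidase CD73 that makes adenosine, measured 6.95 ± 1.31 and 7.56 ± 0.717 FPKM, with a 95% interval of -0.15 to 0.39 on the log2 scale.

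Among transcriptional regulators 2 of 8 rose. Bhlhe40, a repressor of the clock and of differentiation (chromosome 6, 108660629 to 108666925), measured 13.9, 14.3, 13.5 and 9.23 FPKM in the wild type and 33.7, 21.9, 18.2 and 18.03 FPKM in knockout libraries. Knockout replicate 1 was again the highest and wild type replicate 4 the lowest. The fold was 1.81 (log2 change 0.78 ± 0.20, limma adjusted p = 0.0373). The call was lost without wild type replicate 1 (0.0619), 2 (0.0741), 3 (0.0702) or 4 (0.0893) and without knockout replicate 2 (0.0823). Zfp395, a zinc finger factor (chromosome 14, 65358389 to 65398930), measured 3.90 ± 0.305 FPKM in the wild type and 5.01 ± 0.368 FPKM in knockout hearts, just inside the threshold (limma adjusted p = 0.0489). Its call was lost without any 1 of the 8 libraries (0.0588 to 0.113) and with the replicate block (0.134).

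The other regulators did not pass the test. Ankrd37, an ankyrin repeat protein that HIF induces, measured 7.05, 15.6, 12.6 and 6.46 FPKM in the wild type and 22.4, 17.9, 15.1 and 19.04 FPKM in knockout libraries. The fold of Ankrd37 was 1.79, close to that of Bhlhe40, but its wild type libraries fell into a high and a low pair (limma adjusted p = 0.0566). It was called in 1 of the 8 omissions, that of wild type replicate 2 (0.0313), and the others gave up to 0.122. The high pair, wild type replicates 2 and 3, held 0.138 and 1.10 FPKM of the Y chromosome gene Ddx3y, and the low pair 13.98 and 15.05 FPKM. Knockout replicate 1, the highest knockout library for Ankrd37, held 0.104 FPKM of Ddx3y and the other knockout libraries 16.8 to 22.2 FPKM. The atrial marker Bmp10 also separated the wild type pairs, at 49.6 and 74.2 FPKM in the high pair and 0.0868 and 0.121 FPKM in the low pair. In knockout replicates 1 to 4 Bmp10 was at 1.12, 137, 141 and 0 FPKM, and its part was not tested. With Ddx3y as a covariate limma gave an adjusted p = 0.00615 for Ankrd37. In that fit 10 of the 12 calls were kept, Insig2 (0.0590) and Zfp395 (0.0686) were lost, and Ankrd37, Mif and Sap30 were added. Ankrd37 also shares 22.7% of its exonic bases with Lrp2bp on the opposite strand.

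Sap30, a subunit of the Sin3 corepressor, also had its higher values in wild type replicates 2 and 3 and in knockout replicate 1, with 5.10, 7.74, 6.24 and 5.35 FPKM in the wild type and 11.5, 7.95, 6.62 and 7.38 FPKM in knockout (limma adjusted p = 0.153, and 0.00936 with the Ddx3y covariate). Bhlhe41, the relative of Bhlhe40, measured 1.78 ± 0.388 FPKM in the wild type and 2.98 ± 0.748 FPKM in knockout hearts (limma adjusted p = 0.0618). It was called in 1 of the 8 omissions, that of knockout replicate 3 (0.0219), and the others gave up to 0.150. Of the 8 other alternatives that tested Bhlhe41, 1 called it, that with array weights. For Bhlhe41, 19.05% of the exonic bases overlap Gm43909 on the opposite strand. Rora, a nuclear receptor that activates the clock gene Bmal1, measured 3.26 FPKM or less in wild type and 3.29 FPKM or more in knockout libraries, with a limma adjusted p = 0.0881. Mxi1, an antagonist of MYC, measured 6.64 ± 0.230 FPKM in the wild type and 6.91 ± 1.15 FPKM in knockout hearts. Cited2, which competes with HIF for its coactivator, measured 14.8, 12.3, 13.6 and 12.95 FPKM in the wild type and 6.86, 11.02, 10.9 and 23.00 FPKM in knockout libraries. The knockout values of Cited2 thus lay on both sides of the wild type values. Its log2 change of -0.17 was -0.47 without knockout replicate 4 (limma adjusted p = 0.0711) and turned to 0.07 without knockout replicate 1 (0.861).

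**Figure D2:**
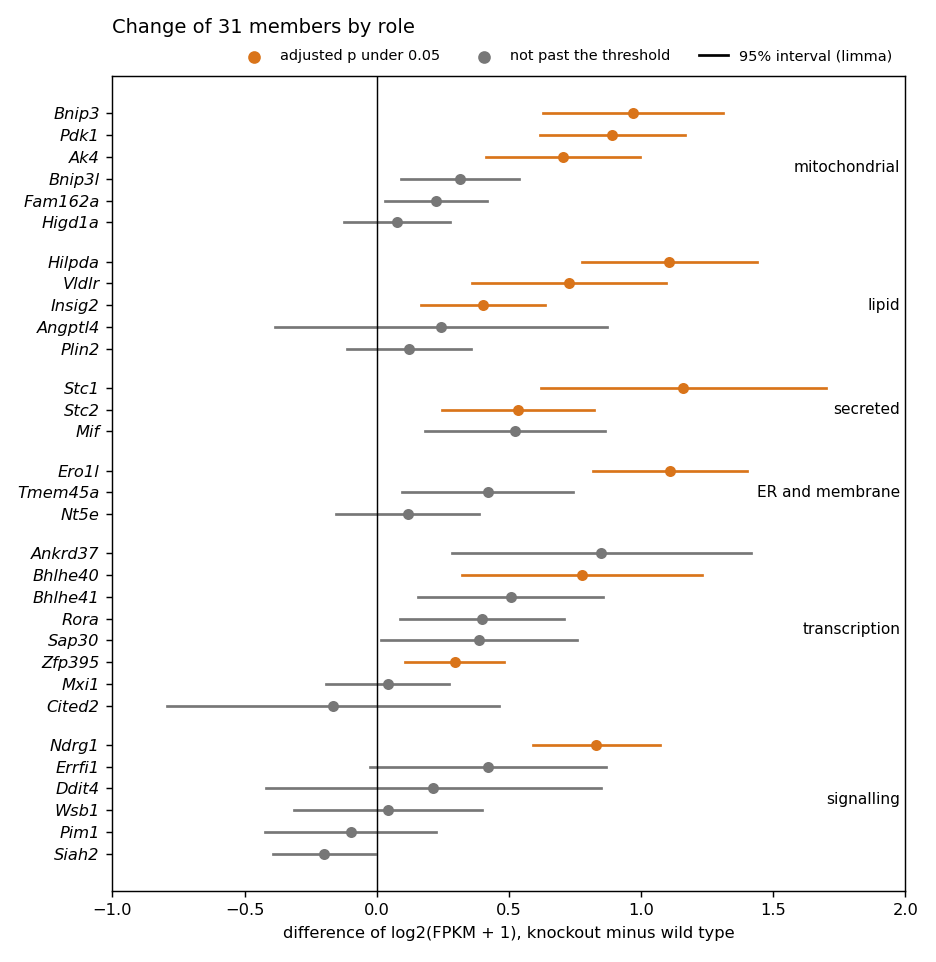
Difference of log2(FPKM + 1), knockout minus wild type, of the 31 tested members, grouped by role; points are limma estimates from 4 against 4 libraries, bars are 95% intervals, and orange marks adjusted p under 0.05. Changes run from -0.20 for Siah2 to 1.16 for Stc1, and among the 6 signalling members Ndrg1 alone is orange.

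Signalling members gave 1 raised gene of 6. Ndrg1, a stress-induced regulator of growth and trafficking (chromosome 15, 66929318 to 66969640), measured 17.03, 16.1, 15.6 and 17.5 FPKM in the wild type and 35.9, 32.6, 25.5 and 27.9 FPKM in knockout libraries. The lowest knockout value was 1.46 times the highest wild type value, and the fold of means was 1.84 (log2 change 0.83 ± 0.11, limma adjusted p = 0.00211). Ddit4, the inhibitor of mTORC1 also called REDD1, measured 57.2, 46.8, 37.6 and 33.6 FPKM in the wild type and 35.01, 53.00, 37.98 and 87.6 FPKM in knockout libraries. Knockout replicate 4 alone exceeded the wild type range, as for Cited2, and without it the log2 change of Ddit4 went from 0.21 ± 0.28 to -0.05 (limma adjusted p = 0.648 with it and 0.884 without). Errfi1, a feedback inhibitor of the EGF receptor, measured 10.8 ± 2.09 FPKM in the wild type and 15.01 ± 3.97 FPKM in knockout hearts (limma adjusted p = 0.189). It was called in 1 of the 8 omissions, that of knockout replicate 3 (0.0408), which held 9.45 FPKM, and the others gave up to 0.377.

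Siah2, a ubiquitin ligase that degrades PHD proteins, measured 4.43, 4.79, 5.46 and 4.44 FPKM in the wild type and 3.83, 3.84, 4.07 and 4.37 FPKM in knockout libraries. All knockout libraries were lower, by a margin smaller than the spread within the wild type, and the log2 change of -0.20 ± 0.09 did not pass the test (limma adjusted p = 0.155). The kinase gene Pim1 was at 9.15 ± 1.67 and 8.46 ± 1.51 FPKM in wild type and knockout hearts. Wsb1, a substrate receptor of a ubiquitin ligase, measured 17.1, 17.95, 18.7 and 20.9 FPKM in the wild type and 23.6, 20.98, 20.8 and 13.1 FPKM in knockout libraries. Knockout replicate 4 was the lowest library for Wsb1, and without it the log2 change was 0.22 in place of 0.04 (limma adjusted p = 0.136).

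The knockout libraries did not order the members in 1 way. Among the 12 members that rose, knockout replicate 1 was the highest library for 6 (Ero1l, Ndrg1, Hilpda, Ak4, Stc1 and Bhlhe40), replicate 4 for 5 (Pdk1, Bnip3, Vldlr, Stc2 and Zfp395), replicate 3 for Insig2 and replicate 2 for 0. The median difference of these 12 genes from their wild type mean, on the scale of log2(FPKM + 1), was 0.90, 0.79, 0.60 and 0.81 in knockout replicates 1 to 4. Knockout replicate 3 was thus the lowest by this median. Among the 19 tested members that did not pass, the same medians were 0.32, 0.26, 0.01 and 0.28. The fibroblast markers were lowest in knockout replicate 4 (466 FPKM against 629 to 668 FPKM in replicates 1 to 3), as were erythroid markers (192 FPKM against 649 to 1568 FPKM). Knockout replicate 1 held 0.104 FPKM of Ddx3y, against 16.8 to 22.2 FPKM in the other knockout libraries. The part of these differences in the order of the libraries was not tested.

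The calls separated by how they held when libraries or settings were changed. Bnip3, Pdk1, Ak4, Ndrg1, Hilpda and Ero1l were called in all 8 omissions of a single library and in all 9 other alternatives. Stc1 was called in all 8 omissions and in 7 of the 8 other alternatives that tested it, and was lost without both replicates 4 (limma adjusted p = 0.0621). Vldlr held in 5 of 8 omissions, Bhlhe40 and Stc2 in 3, Insig2 in 2 and Zfp395 in 0. Without wild type replicate 4, the library with lung markers, 7 members rose and 0 fell, and those 7 were Bnip3, Pdk1, Ak4, Ndrg1, Hilpda, Ero1l and Stc1. In that fit 356 of all 11383 tested genes rose and 386 fell, against 701 and 684 as reported. Without both replicates 4, 6 members rose and 0 fell, while 467 of all 11364 tested genes rose and 528 fell. Plin2, Nt5e, Angptl4, Higd1a, Ddit4, Pim1, Cited2, Mxi1, Wsb1, Siah2, Fam162a, Rora and Bnip3l were called under none of the alternatives run.

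**Figure D3:**
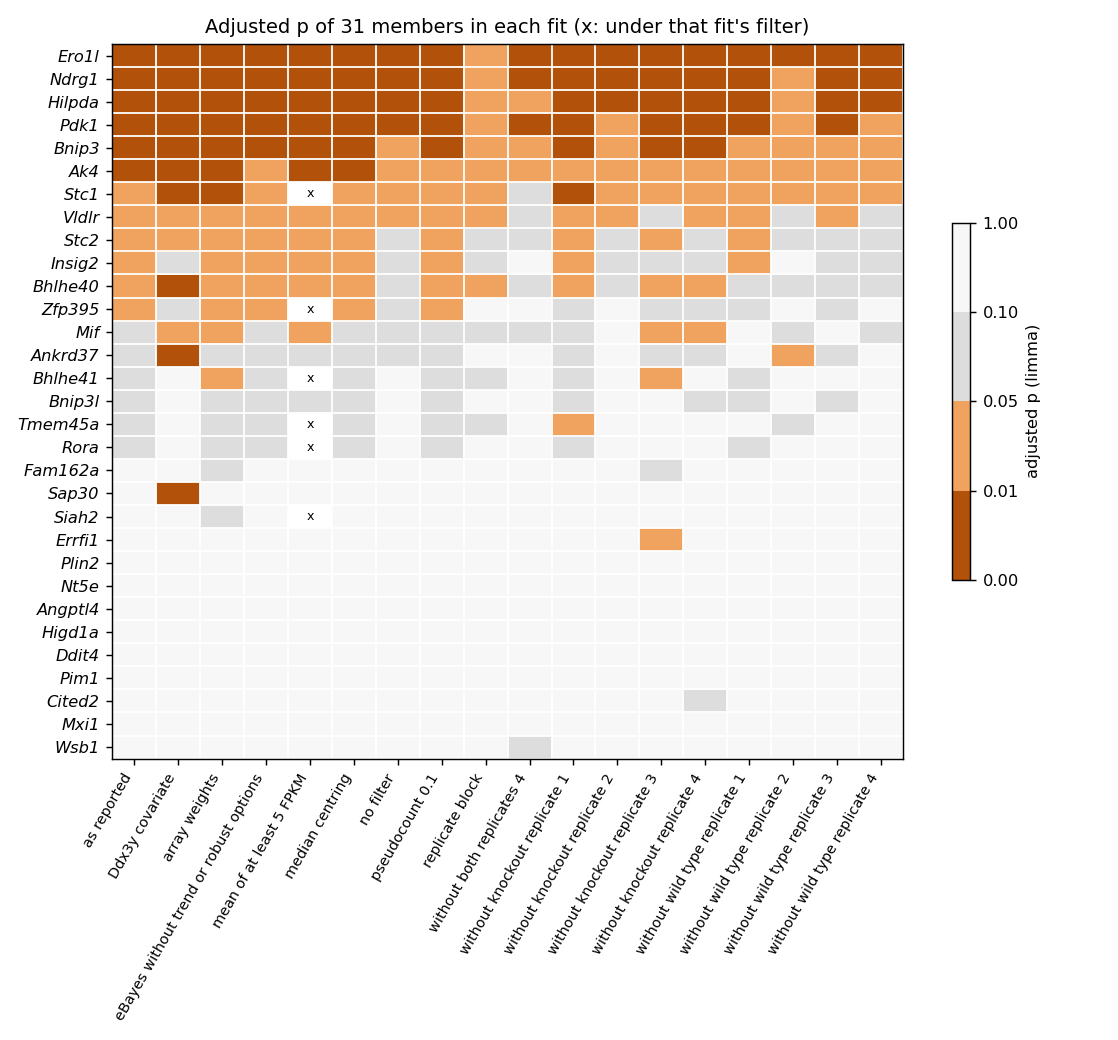
Adjusted p from limma for the 31 tested members (rows, by adjusted p) in the fit as reported and in each of 17 alternatives (columns); dark orange is under 0.01, light orange under 0.05, grey under 0.1, near-white above, and x marks a gene under the filter of that fit. The rows of Ero1l, Ndrg1, Hilpda, Pdk1, Bnip3 and Ak4 are orange throughout, while that of Zfp395 (0.0489 as reported) is grey or near-white in every omission of a library.

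Relatives of the members in the same gene families were examined as a contrast. Of 36 listed relatives 30 were tested, and 3 were called higher and 0 lower, beside 6.15% of all tested genes raised. Of these 3, Lrp8 passed the filter only through its knockout libraries and so had to differ. Lrp8, a lipoprotein receptor related to Vldlr, measured 0.595, 0.344, 0.368 and 0.174 FPKM in the wild type and 1.46, 5.66, 1.37 and 2.002 FPKM in knockout libraries, with knockout replicate 2 far above the rest. The other relatives called were Pdk3 and Ndrg4. Pdk3, the isoform of pyruvate dehydrogenase kinase that HIF also induces in some cells, rose 1.45-fold (log2 change 0.46 ± 0.11, limma adjusted p = 0.0281). Ndrg4, a cardiac relative of Ndrg1, rose 1.45-fold from 166 to 242 FPKM (log2 change 0.55 ± 0.12, limma adjusted p = 0.0201). Ddt, the relative of Mif, measured 33.8 FPKM in the wild type and 46.1 FPKM in knockout hearts (limma adjusted p = 0.0821).

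Within 8 pairs of a member and a relative, the difference of log2(FPKM + 1) was taken in each library and compared between the groups by a two-sided exact permutation test. With 4 against 4 libraries the smallest p is 0.0286, and adjusted over the 8 pairs 0 passed 0.05, while 4 reached the smallest p, each with an adjusted p of 0.0571. Bnip3 gained 0.66 on Bnip3l, and the libraries of the groups did not overlap in this difference. Stc1 gained 0.62 on Stc2, or 0.33 without knockout replicate 1. Pdk1 gained 1.30 on Pdk4, the isoform induced by fasting, whose wild type libraries ran from 117 to 419 FPKM. The groups were barely apart in this difference, with -2.705 in the highest wild type library and -2.702 in the lowest knockout library. Pdk4 itself averaged 294 FPKM in the wild type and 205 FPKM in knockout hearts (limma adjusted p = 0.506). Insig2 gained 0.62 on Insig1, the sterol-regulated isoform, which was at 6.20 FPKM in the wild type and 5.27 FPKM in knockout hearts.

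Of the other pairs, 3 are given here, each with a larger p. Plin2 gained 0.33 on Plin5, the droplet protein of oxidative tissue (exact permutation p = 0.0571, adjusted p = 0.0914). Ndrg1 gained 0.54 on Ndrg2 (exact permutation p = 0.0857, adjusted p = 0.114). Bhlhe40 and Bhlhe41 differed by 0.27 in their changes (exact permutation p = 0.371, adjusted p = 0.424), or 0.08 without knockout replicate 1.

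**Figure D4:**
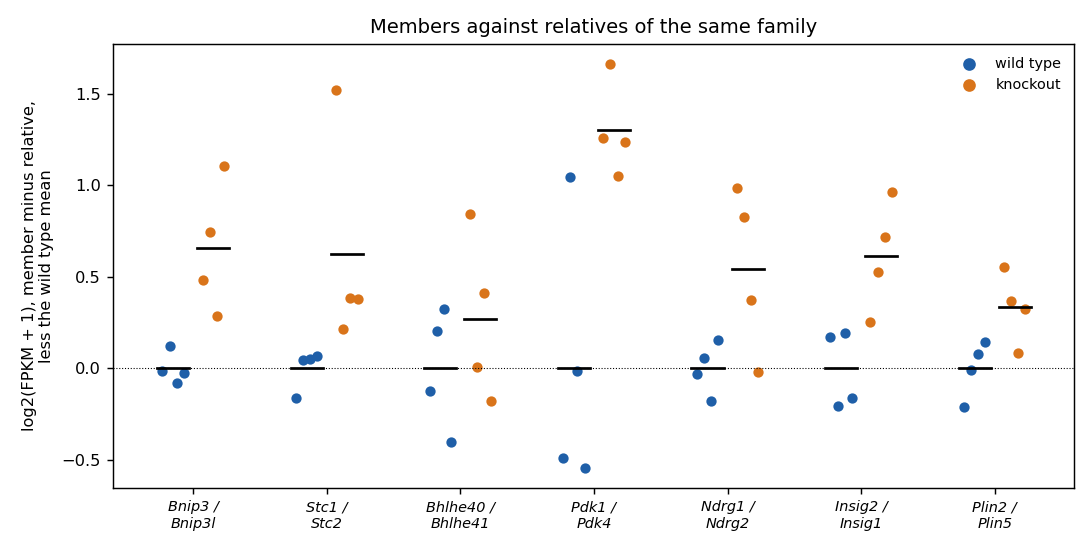
Member minus relative in log2(FPKM + 1), set to a wild type mean of 0, for 7 of the 8 pairs of the same family; each point is 1 library (blue wild type, orange knockout) and the black line the group mean. The groups do not overlap for Bnip3 and Bnip3l, Stc1 and Stc2, Pdk1 and Pdk4, and Insig2 and Insig1, with mean shifts of 0.66, 0.62, 1.30 and 0.62. For Pdk1 and Pdk4 the groups are barely apart.

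Among the HIF subunits and hydroxylases 1 of 9 tested genes rose (11.1%) and 0 fell, beside 6.15% raised and 6.01% lowered of all tested genes. That gene was Hif1a, the oxygen-regulated subunit, at 21.2 to 26.3 FPKM in the wild type and 34.6 to 42.6 FPKM in knockout libraries. Egln1 and Egln3, which encode PHD2 and PHD3, averaged 52.9 and 28.2 FPKM in wild type hearts against 57.4 and 40.8 FPKM in knockout hearts (limma adjusted p = 0.442 and 0.132), so whole-heart values do not check the labelled deletion. Of glycolytic HIF targets 11 of 17 rose and 0 fell, with the lowest p for Slc2a1, Slc16a3, Pfkfb3 and Pgk1. Of secreted and matrix HIF targets 11 of 19 rose and 2 fell, the latter being Tek and Cxcl12. The median log2 change was 0.53 for the glycolytic and 0.63 for the secreted and matrix targets, against 0.40 for the members, a difference that was not tested.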

How the data were processed

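RNA from whole mouse hearts (4 wild type and 4 PHD2/3 endothelial knockout libraries) was prepared with a spin-column kit and TruSeq, per the labels' protocols. The authors deposited 1 table of FPKM; TopHat2, Cufflinks and the build mm10 come from the submitters' processing notes, without versions. The unit is not named in the table and was read as linear FPKM. The deposited columns were quantile normalised: at ranks with a mean of at least 1 FPKM they differed by at most 3.87%, so depth and counting error cannot be recovered. The sources used here do not give the annotation or strandedness.

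The 11390 of 22518 genes whose mean reached 1 FPKM were compared on log2(FPKM + 1) with limma 3.58.1 (R 4.3.3; lmFit, eBayes with trend and robust options, no covariate, Benjamini-Hochberg adjustment over all genes kept). Members under the filter and pairs of relatives used exact permutation tests (scipy 1.17.1, Python 3.11.15); p-values were adjusted over 8 pairs, of which 1 is not reported here. The functions were tested on simulated data. All 32 members are named, and other lists by count with up to 4 genes of smallest p; relatives of paired members, marker genes and genes outside these were chosen after their values were seen. Alternatives changed the pseudocount to 0.1, the filter, scaling, variance model, sample weights, replicate block and Ddx3y covariate, or left out libraries. Members and lists were chosen with earlier results of these data known. Sequences are from RefSeq (GRCm38.p6) and gene positions from GENCODE M21.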

Additional observations from a re-analysis of the deposited data

Results flagged for a closer look

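In 3 of the 62 groups of 4 values examined (31 members in 2 genotypes), 1 library stood far from the other 3 on the log2 scale; chance alone marks about 1 group in 20. Bhlhe40 was at 9.23 FPKM in wild type replicate 4, below 13.5 to 14.3 FPKM in the other wild type libraries, and 0.871 of the range of the group lay in that gap. Zfp395 was at 3.44 FPKM in the same library, below the other wild type libraries, of which the highest held 4.11 FPKM (0.841 of the range). Hilpda was at 5.95 FPKM in wild type replicate 1, below 7.35 to 7.64 FPKM (0.841 of the range).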

How the results depend on the processing

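The number of members that rose was 12 as reported and ran from 7 (without wild type replicate 4) to 12 when 1 library was left out; without both replicates 4 it was 6. It was 8 of 32 tested with no filter and 11 of 25 tested at a mean of at least 5 FPKM, a filter that Stc1 and Zfp395 did not pass. With all 31 tested it was 9 with the replicate block and 13 with the Ddx3y covariate (10 of the 12 kept). It was 14 with array weights, which added Bhlhe41 and Mif, and 12 under the remaining settings. The number that fell was 0 under all 17 alternatives. Over all tested genes, 701 rose and 684 fell. These became 323 and 290 with the replicate block and 467 and 528 without both replicates 4. With array weights 973 rose and 1055 fell, and with 1 library left out 288 to 931 rose and 286 to 888 fell. The log2 change of Mxi1 turned sign with array weights (-0.0282) and without both replicates 4 (-0.0283), and that of Ddit4 without both replicates 4 (-0.167). With 1 library left out, changes also turned sign without knockout replicate 4 (Mxi1, Ddit4) or 1 (Cited2, Wsb1), over ranges of -0.0493 to 0.0981 for Mxi1, -0.0520 to 0.381 for Ddit4, -0.468 to 0.0685 for Cited2 and -0.0534 to 0.216 for Wsb1. The cause was not tested. Deviations from the group means correlated at -0.23, 0.01, 0.10 and -0.10 between wild type and knockout libraries of the same number, 1 to 4. Libraries of different numbers gave -0.19 to 0.27. So few values cannot decide whether the numbers mark a pairing. In the paired fit Insig2, Stc2 and Zfp395 lost their calls. With a pseudocount of 0.1 the gain of Stc1 on Stc2 was 1.04 and 0 pairs passed. With a library left out, the exact test of a pair cannot go below p = 0.0571, so those fits gave values only. Unknown depth limits what can be said of low genes such as Stc1 and Epo.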
